A study of Arabidopsis thaliana with 2 samples.

Results

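The genes described here make, move and read the plant hormone auxin (indole-3-acetic acid) in mature ovules of Arabidopsis thaliana. They are 47 of the 33557 identifiers with values in the deposited table, taken by locus, and all 47 were measured; 46 of them are described here, and every count below is over these 46. By role they comprise 7 synthesis genes (TAA1, TAR2 and 5 YUC genes), 6 PIN efflux carriers, 4 influx carriers (AUX1 and 3 LAX genes), 4 TIR1/AFB receptors, 8 auxin response factors (ARF) and 17 Aux/IAA repressors. RNA was sequenced from 2 genotypes with 1 library each. The myb98 library came from ovules mutant for MYB98, a transcription factor of the synergid cells that guide the pollen tube, and which allele it carries was not stated. The wild-type (WT) library came from the male-sterile line ms1, left unpollinated and used in place of true wild-type plants. Each library pooled whole ovules; the collection protocol gives about 50 pistils, with flowers emasculated at floral stage 12 and harvested 36 hours later. A difference between the libraries is therefore one between myb98 and ms1 material, and genotype, line and library cannot be told apart.

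Auxin is made from tryptophan in a short pathway: TAA1 and its relatives form indole-3-pyruvate, and YUC flavin monooxygenases turn this into auxin. PIN proteins export the hormone from cells and AUX1/LAX proteins import it. Inside the nucleus auxin joins a TIR1/AFB F-box protein to an Aux/IAA repressor, the repressor is degraded, and the ARF proteins it held can act on their target genes. In ovules this system is known for its part in outgrowth of the primordium, in growth of the integuments and in the start of fruit and seed growth at fertilization.

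The contact between receptor and repressor is a short degron, whose core of 5 residues begins with glycine, tryptophan and a pair of prolines. Codons for this core were found in all 17 Aux/IAA genes described here, and in 6 of the 12 other Aux/IAA genes of the genome (not in IAA20, IAA30, IAA31, IAA32, IAA33 or IAA34). The coding DNA around it is shown for the 3 most abundant ovule Aux/IAA genes with the stretch in a single exon and for a pair near the bottom of the range, to show that both carry it. Capitals mark the 15 bases of the core, and 4 codons are given on each side (RefSeq, TAIR10.1, coding strand, 5′ to 3′).
IAA8, chr2:9637722-9637760, plus strand: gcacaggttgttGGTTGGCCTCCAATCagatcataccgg
IAA9, chr5:26255101-26255139, plus strand: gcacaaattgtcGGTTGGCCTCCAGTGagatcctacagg
IAA27, chr4:14324648-14324686, minus strand: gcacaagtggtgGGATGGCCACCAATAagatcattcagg
IAA1, chr4:8361433-8361471, plus strand: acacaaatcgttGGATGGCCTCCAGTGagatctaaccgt
IAA19, chr3:5264304-5264342, plus strand: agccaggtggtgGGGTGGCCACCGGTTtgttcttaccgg
Over these 39 bases, IAA9 was 82.1%, IAA27 79.5%, IAA1 74.4% and IAA19 66.7% identical to IAA8. In the core, 13, 12, 12 and 10 of the 15 bases were shared with IAA8, in the same order of genes.

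Values are FPKM, fragment numbers corrected for transcript length and library size, so levels can be compared between genes within a library. Genes reaching 1 FPKM in one library or both, 16303 in all, are called expressed. The low end of the values puts the libraries at about 41900000 fragments for myb98 and 48300000 for WT. MYB98 itself stood at 0.474 FPKM in the myb98 library and 1.35 FPKM in the WT library, and its peptide target LURE1.2 was listed at 0 in myb98 and at 191 FPKM in WT. The 5 markers of ovule identity and integument ran from 28.4 to 123 FPKM in myb98 and from 29.6 to 106 FPKM in WT. Among them SHP1 had 29.1 FPKM in myb98 and 40.1 FPKM in WT. Of the egg cell genes, EC1.5 had 56.8 FPKM in myb98 and 24.3 FPKM in WT. EC1.1 to EC1.4 ran from 33.0 to 62.6 FPKM in myb98 and from 23.3 to 68.9 FPKM in WT. Of the central cell genes, DME had 3.85 FPKM in myb98 and 8.61 FPKM in WT, and FWA 1.36 FPKM in myb98 and 1.67 FPKM in WT. Of the transmitting tract and carpel genes, ALC had 36.9 FPKM in myb98 and 51.0 FPKM in WT. SPT, also of that list, had 3.33 FPKM in myb98 and 2.29 FPKM in WT. The endosperm gene AGL62 had 1.32 FPKM in myb98 and 0.9 FPKM in WT. Of 3 pollen genes, ANX1, a receptor kinase gene, had 1.26 FPKM in myb98 and 1.28 FPKM in WT, its relative ANX2 was listed at 0 in both, and RALFL8 had 0.118 FPKM in myb98 and 0.0487 FPKM in WT.

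**Figure D1:**
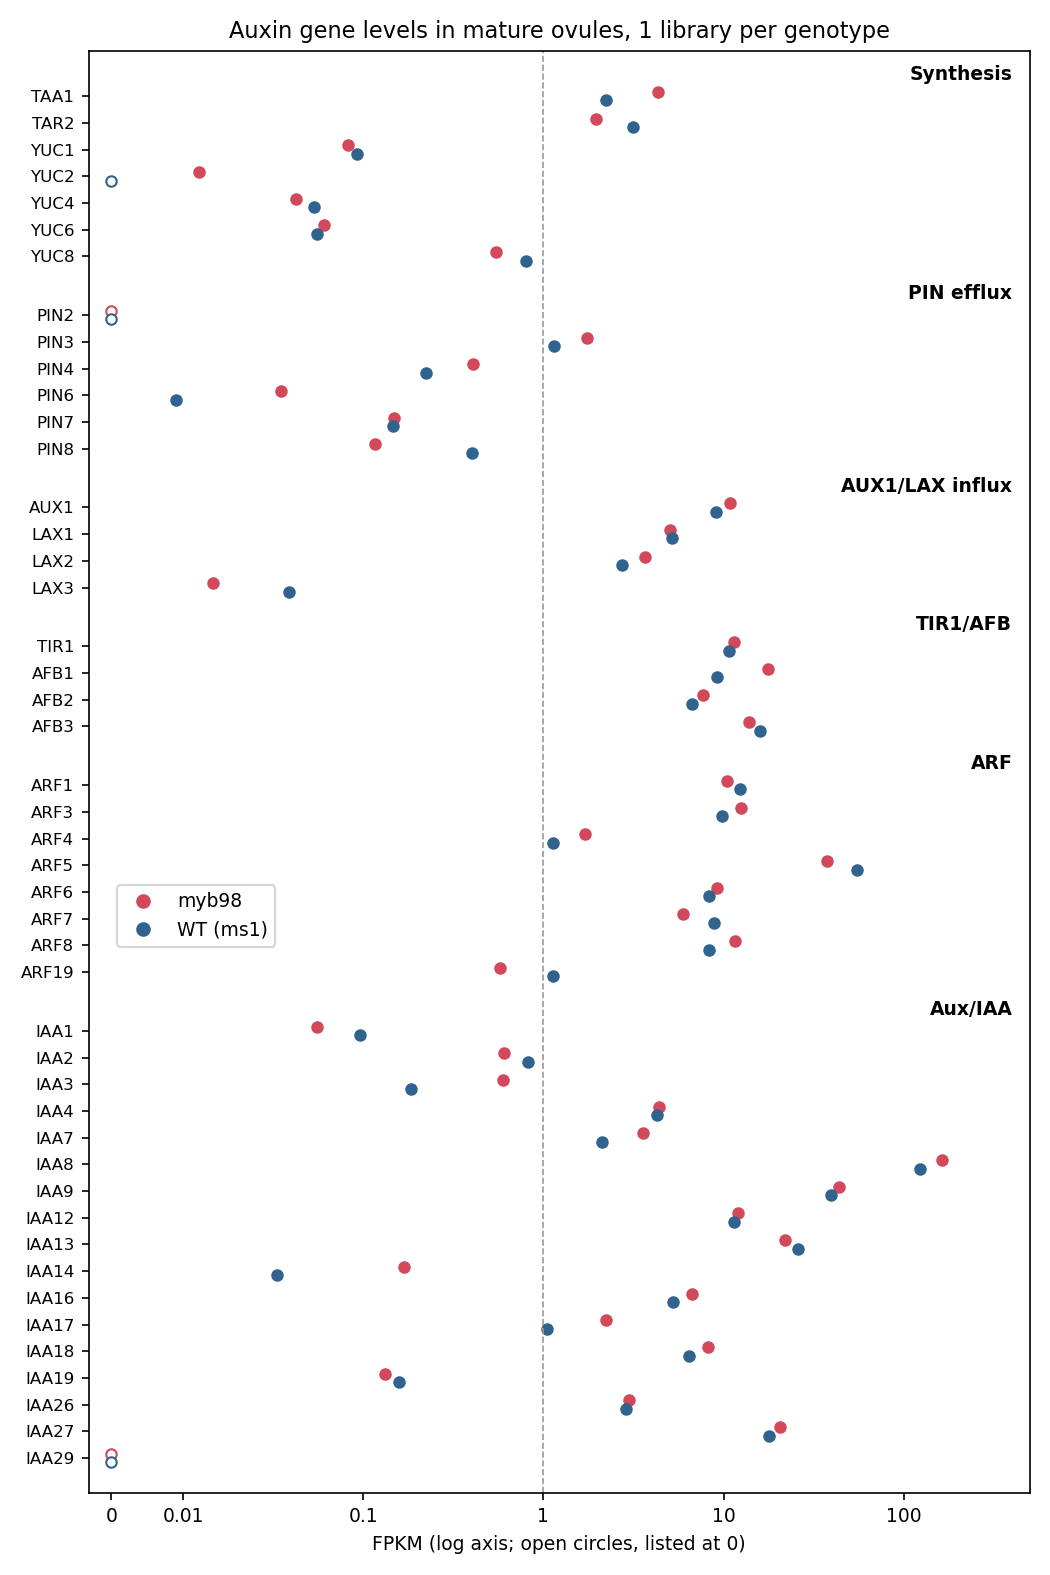
FPKM of each of the 46 auxin genes on a log axis, by role, with the myb98 library in red above the WT (ms1) library in blue; open circles are listed at 0 and the dashed line is 1 FPKM. IAA8 stands furthest right at 164 FPKM in myb98 and 124 FPKM in WT, and all 5 YUC genes lie left of the line.

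No expressed auxin gene passed the size rule between the genotypes. Levels of the auxin genes ran from a listed 0 to 164 FPKM. A gene passed if log2((myb98 FPKM + 1)/(WT FPKM + 1)) was at least 1 or at most -1, which is a 2-fold difference. The added pseudocount of 1 understates changes of low genes. With it, the 17 auxin genes below 1 FPKM in both libraries could not pass, whatever their plain ratio. Of the 29 expressed auxin genes 0 were higher and 0 lower in myb98, where 2.95% of all expressed genes were higher and 2.74% lower, or 5.69% in either direction. At 4-fold the counts were again 0 and 0, where 0.282% of all expressed genes were higher and 0.712% lower (0.994% in either direction). Against so low a background, 0 of 29 does not set the auxin genes apart. With 1 library per genotype there is no replicate error and no test, and the ratios describe these libraries. In whole ovules, fewer cells of a type and less RNA per cell cannot be told apart.

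Smaller differences leaned to one side. The log2 ratio was above 0 for 21 of the 29 auxin genes (72.4%), against 49.6% of all expressed genes, and its median was 0.19, against 0.00. Of the 29, 13 lay within the interquartile range of all expressed genes, -0.28 to 0.29. The ratio also moved with transcript length over the whole table, from a median of 0.33 over 2267 genes of 300 to 1000 nt to -0.30 over 1947 genes of 3000 nt and longer. Set against the median of the expressed genes nearest in length (250 on each side), again 21 of the 29 lay above 0 and their median was 0.29. Pathway genes outside the set did not all lean this way. In the further lists given below, 12 of 32 expressed genes lay above 0 (37.5%), with a median of -0.15. Against genes of like length, 17 of these 32 lay above 0 and their median was 0.03. Of 20 expressed SAUR genes, also below, 17 lay above 0, or 12 against genes of like length.

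Most of the expressed receptors (3 of 4), influx carriers (2 of 3) and Aux/IAA genes (10 of 11) had ratios above 0, and the ARF genes were divided, with 4 on each side. The median log2 ratio was 0.20 for 11 expressed Aux/IAA genes, 0.14 for 4 receptors, 0.22 for 3 influx carriers, 0.12 for 2 synthesis genes and -0.04 for 8 ARF genes. Set against genes of like length the medians became 0.18, 0.28, 0.29, 0.11 and 0.16 in the same order, so the sign for the ARF genes turned. Summed over the 46, the level was 460.7 FPKM in myb98 and 414.4 FPKM in WT.

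**Figure D2:**
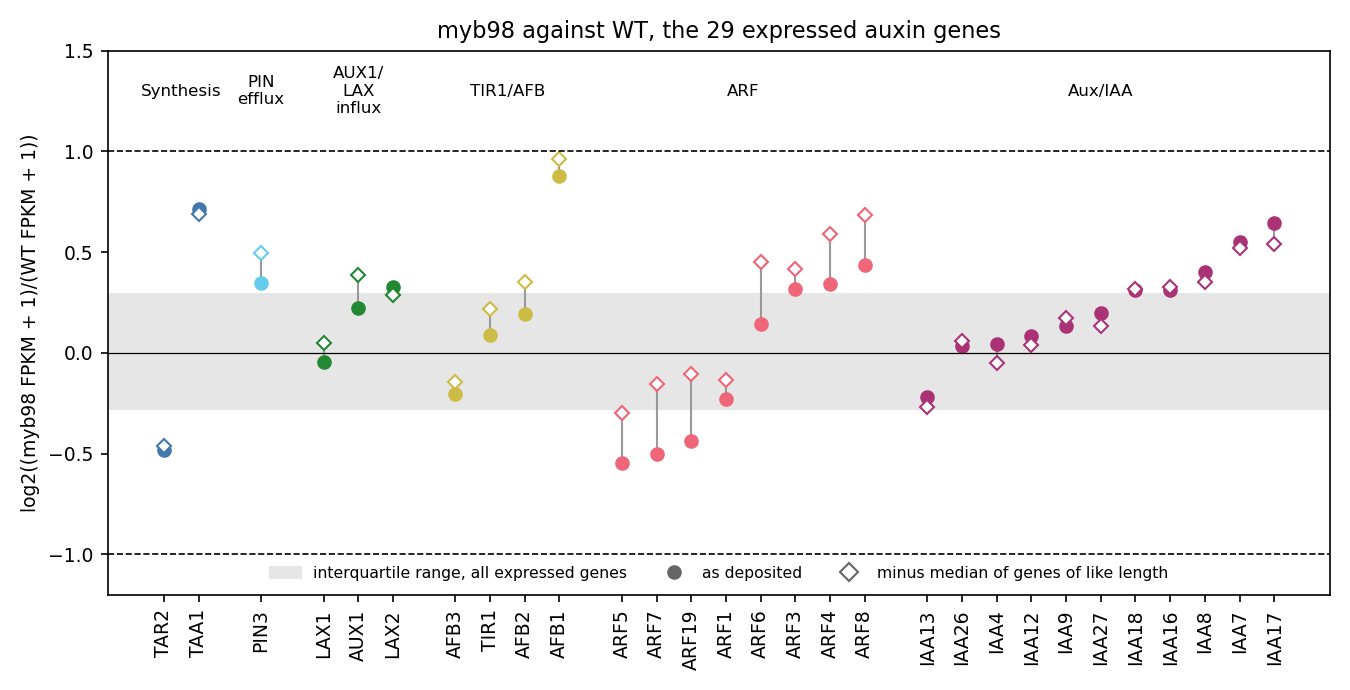
Log2 ratio of myb98 over WT (pseudocount 1) for the 29 expressed auxin genes, ordered within each role; circles are the deposited values, open diamonds the same after subtracting the median of genes of like transcript length. The grey band, -0.28 to 0.29, is the interquartile range of all expressed genes, dashed lines mark the 2-fold rule, and no gene reaches them; AFB1 is nearest at 0.88.

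Synthesis genes were low, and their first step was the better represented. TAA1 (AT1G70560, chromosome 1, 26604855 to 26607652, plus strand), the aminotransferase of that step, had 4.31 FPKM in myb98 and 2.24 FPKM in WT, a plain ratio of 1.93 (log2 ratio 0.71 with the pseudocount). Its relative TAR2 (AT4G24670, chromosome 4, 12727531 to 12731331, minus strand) had 1.96 FPKM in myb98 and 3.14 FPKM in WT, a plain ratio of 0.625 (log2 ratio -0.48). TAA1 thus led the group in myb98 with 61.4% of its summed FPKM, against 35.0% in WT, and TAR2, with 28.0% in myb98 and 49.3% in WT, led it in WT. Against genes of like length the values were close to these, at 0.69 for TAA1 and -0.46 for TAR2.

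The second step was represented by traces. YUC8 was the highest YUC gene, at 0.547 FPKM in myb98 and 0.801 FPKM in WT, or about 39.8 and 67.1 fragments by the depth estimate. YUC1, YUC4 and YUC6 lay between 0.0425 and 0.0819 FPKM in myb98 and between 0.0535 and 0.0922 FPKM in WT, and YUC2 had 0.0122 FPKM in myb98 and was listed at 0 in WT. The 5 YUC genes summed to 0.744 FPKM in myb98 and 1.0 FPKM in WT. Of the 7 synthesis genes outside this set (TAR1 and 6 further YUC genes), 0 were expressed, and 4 were listed at 0 in both libraries.

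Of the 6 efflux carriers described, 1 was expressed. PIN3 (AT1G70940), known from responses to gravity and light, had 1.74 FPKM in myb98 and 1.15 FPKM in WT (log2 ratio 0.35, or 0.50 against genes of like length). The other 5 stayed below 1 FPKM. PIN4 had 0.405 FPKM in myb98 and 0.222 FPKM in WT, and PIN7 had 0.148 FPKM in myb98 and 0.147 FPKM in WT. PIN8, a carrier of the endoplasmic reticulum known from pollen, had 0.116 FPKM in myb98 and 0.402 FPKM in WT, which is about 6.92 and 27.7 fragments. PIN6 had 0.0348 FPKM in myb98 and 0.00919 FPKM in WT, and PIN2, the carrier of the root tip, was listed at 0 in both. The PIN8 values rest on few fragments. The pollen genes ANX1 and RALFL8 were above 0 in both libraries and ANX2 in neither, and the part of pollen RNA in PIN8 was not tested.

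Of the influx carriers, 3 of 4 were expressed, each above PIN3. AUX1 (AT2G38120) had 10.8 FPKM in myb98 and 9.10 FPKM in WT (log2 ratio 0.22), LAX1 (AT5G01240) 5.02 FPKM in myb98 and 5.20 FPKM in WT (-0.04), and LAX2 (AT2G21050) 3.67 FPKM in myb98 and 2.72 FPKM in WT (0.33). The order AUX1, LAX1, LAX2, LAX3 was the same in both libraries. LAX3, known from lateral root emergence, was near the limit of the data at 0.0147 FPKM in myb98 and 0.0386 FPKM in WT. Summed influx carriers came to 19.5 FPKM in myb98 and 17.1 FPKM in WT, and the 6 PIN genes described to 2.44 FPKM in myb98 and 1.93 FPKM in WT. These sums do not cover all auxin carriers. The transporter ABCB19, outside the set, had 60.5 FPKM in myb98 and 71.2 FPKM in WT.

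All 4 receptors were expressed, and AFB1 had the largest log2 ratio of the 46 genes. AFB1 (AT4G03190, chromosome 4, 1404887 to 1407402, minus strand, 3 exons), an F-box protein known for fast auxin responses in roots, had 17.7 FPKM in myb98 and 9.15 FPKM in WT, a plain ratio of 1.93 (log2 ratio 0.88, and 0.96 against genes of like length). These values rest on about 1722 fragments in myb98 and 1028 in WT. Its exons overlap those of AT4G03180 on the opposite strand by up to 51 bases, and those of the antisense locus AT4G04455 by 423 bases, and without stated strandedness reads of the overlaps cannot be assigned. AT4G03180 had 8.09 FPKM in myb98 and 9.35 FPKM in WT.

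The other receptors differed less. TIR1 (AT3G62980), the founding member of the family, had 11.5 FPKM in myb98 and 10.7 FPKM in WT (log2 ratio 0.09). AFB2 (AT3G26810) had 7.73 FPKM in myb98 and 6.64 FPKM in WT (0.19), and AFB3 (AT1G12820) had 13.8 FPKM in myb98 and 16.0 FPKM in WT (-0.20). AFB1 was thus the most abundant receptor in myb98, with 34.9% of the group against 21.5% in WT, and AFB3, with 27.2% in myb98 and 37.6% in WT, was first in WT. As for AFB1, reads of overlaps cannot be assigned for AFB3. Its exons overlap those of AT1G04977 on the opposite strand by up to 638 bases. They overlap those of AT1G12810 (16.3 FPKM in myb98, 16.6 FPKM in WT), also on the opposite strand, by up to 63 bases. AFB2 and AFB3 transcripts are 81.9% identical over their longest alignment, the highest such value found between one of the 46 and another annotated transcript.

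Response factors were led by ARF5, and all 8 were expressed. ARF5 (AT1G19850, MONOPTEROS, chromosome 1, 6886669 to 6891404, plus strand, 13 exons), an activator known from embryo and organ patterning, had 37.4 FPKM in myb98 and 55.1 FPKM in WT, a plain ratio of 0.678 (log2 ratio -0.55). That is the lowest log2 ratio of the 29 expressed auxin genes; against genes of like length it was -0.30. ARF5 held 41.9% of the summed level of these 8 ARF genes in myb98 and 52.5% in WT. Among all expressed genes its level stood at percentile 92.6 in myb98 and 96.2 in WT.

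The other activators went both ways. ARF7 (AT5G20730) had 5.93 FPKM in myb98 and 8.81 FPKM in WT (log2 ratio -0.50), and its close relative ARF19 (AT1G19220) 0.571 FPKM in myb98 and 1.13 FPKM in WT (-0.44), both known from lateral root formation. ARF8 (AT5G37020), which holds back fruit growth before fertilization, had 11.6 FPKM in myb98 and 8.28 FPKM in WT (0.44), and its partner in flower maturation ARF6 (AT1G30330) 9.22 FPKM in myb98 and 8.25 FPKM in WT (0.15). The pair ARF7 and ARF19 thus lay on the lower side and the pair ARF6 and ARF8 on the higher side. Their transcripts are long, 3482 to 4429 nt, where the median ratio of all genes is below 0; against genes of like length ARF7 was at -0.16, ARF19 at -0.10, ARF8 at 0.69 and ARF6 at 0.45.

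Of the remaining response factors, ARF3 (AT2G33860, ETTIN), which patterns the gynoecium, had 12.5 FPKM in myb98 and 9.83 FPKM in WT (log2 ratio 0.32). ARF4 (AT5G60450), its relative, had 1.70 FPKM in myb98 and 1.13 FPKM in WT (0.34), and the repressor ARF1 (AT1G59750) 10.4 FPKM in myb98 and 12.4 FPKM in WT (-0.23). The activators ARF5, ARF6, ARF7, ARF8 and ARF19 summed to 64.7 FPKM in myb98 and 81.6 FPKM in WT. The other 3 described here summed to 24.6 FPKM in myb98 and 23.4 FPKM in WT. These sums leave out 15 ARF genes outside the set, which came to 73.0 FPKM in myb98 and 82.8 FPKM in WT. The highest of those, ARF2, had 35.6 FPKM in myb98 and 41.5 FPKM in WT. ARF5 alone differed by more than the activator sum did.

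**Figure D3:**
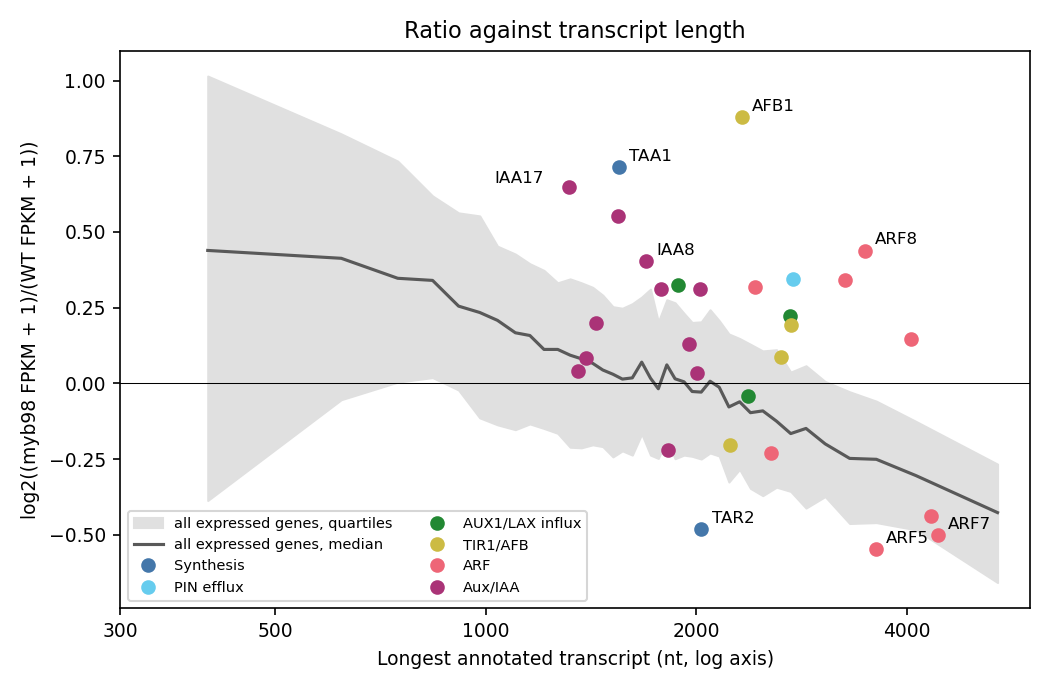
Log2 ratio of myb98 over WT (pseudocount 1) against the longest annotated transcript on a log axis; the grey line and band are the median and quartiles of all expressed genes in 40 length bins, and points are the 29 expressed auxin genes by role. The median of all genes falls with length; AFB1 (0.88 at 2324 nt) and ARF8 (0.44 at 3482 nt) lie above the band.

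Aux/IAA repressors made up 63.3% of the summed FPKM of the 46 genes in myb98 and 58.3% in WT, and IAA8 alone 35.6% in myb98 and 29.8% in WT. IAA8 (AT2G22670, chromosome 2, 9636346 to 9638761, plus strand, 6 exons) had 164 FPKM in myb98 and 124 FPKM in WT (log2 ratio 0.40), at percentile 98.7 of all expressed genes in both. IAA9 (AT5G65670), whose counterpart in tomato holds back fruit set, had 43.5 FPKM in myb98 and 39.6 FPKM in WT (0.13). IAA13 (AT2G33310) had 22.0 FPKM in myb98 and 25.8 FPKM in WT (-0.22), and was the single one of these 11 expressed Aux/IAA genes with a ratio below 0. Its exons overlap by 784 bases those of AT2G33300 on the opposite strand, which had 0.0183 FPKM in myb98 and was listed at 0 in WT.

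The next levels belonged to IAA27 (AT4G29080), which binds phytochrome, and to IAA12 (AT1G04550, BODENLOS), the partner of ARF5 in the embryo. IAA27 had 20.6 FPKM in myb98 and 17.8 FPKM in WT (log2 ratio 0.20), and IAA12 had 12.1 FPKM in myb98 and 11.4 FPKM in WT (0.08). IAA8, IAA9, IAA13, IAA27 and IAA12 were the first 5 of the group in this order in both libraries.

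A middle group lay between 1 and 10 FPKM. IAA18 (AT1G51950) had 8.24 FPKM in myb98 and 6.45 FPKM in WT (log2 ratio 0.31), IAA16 (AT3G04730) 6.71 FPKM in myb98 and 5.21 FPKM in WT (0.31), and IAA4 (AT5G43700) 4.40 FPKM in myb98 and 4.25 FPKM in WT (0.04). IAA26 (AT3G16500) had 2.98 FPKM in myb98 and 2.89 FPKM in WT (0.03), and IAA7 (AT3G23050, AXR2) 3.56 FPKM in myb98 and 2.11 FPKM in WT (0.55). IAA17 (AT1G04250, AXR3), known from a gain-of-function mutant with strong auxin phenotypes, had 2.21 FPKM in myb98 and 1.05 FPKM in WT (0.65). Its plain ratio of 2.10 was the highest of the 29 expressed genes of the set, and IAA17 passed the 2-fold rule at a pseudocount of 0.1 (log2 ratio 1.01). It rests on about 122 fragments in myb98 and 66.9 in WT.

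**Figure D4:**
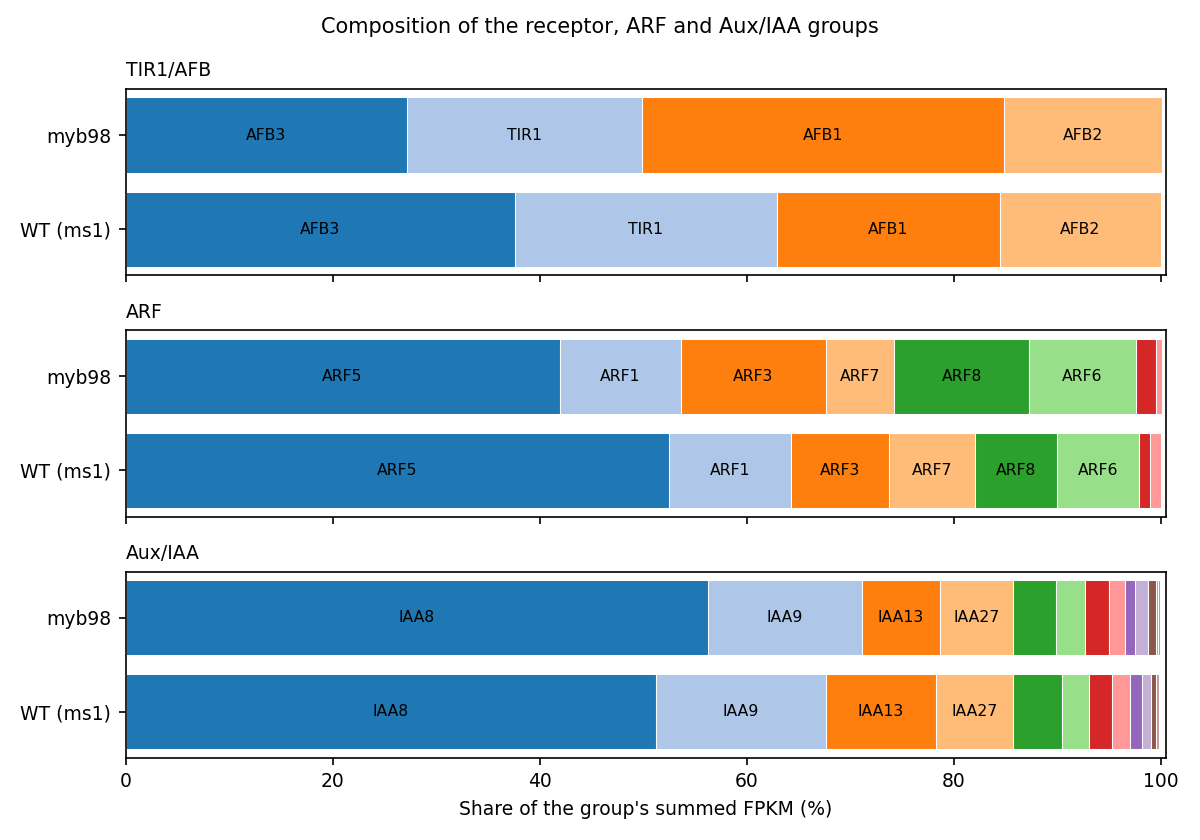
Share of each gene in the summed FPKM of its group, for receptors, ARF genes and Aux/IAA genes, with the myb98 bar above the WT (ms1) bar; genes run in the same order in both bars and shares under 5% are not named. Groups hold only the genes described here, not the whole families. IAA8 takes 56.2% of the Aux/IAA level in myb98 and 51.2% in WT, and AFB1 takes 34.9% of the receptor level in myb98 and 21.5% in WT.

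The 6 low Aux/IAA genes include several that are known from roots and seedlings. IAA2 had 0.601 FPKM in myb98 and 0.819 FPKM in WT, and IAA3 (SHY2), a regulator of the root meristem, 0.597 FPKM in myb98 and 0.184 FPKM in WT. IAA14 (SLR), which controls lateral root initiation, had 0.168 FPKM in myb98 and 0.0332 FPKM in WT, or about 12.2 and 2.77 fragments. IAA19 had 0.132 FPKM in myb98 and 0.158 FPKM in WT, IAA1 had 0.0556 FPKM in myb98 and 0.0961 FPKM in WT, and IAA29 was listed at 0 in both. The IAA3 exons overlap by 491 bases those of AT1G04230 on the opposite strand, which had 5.62 FPKM in both libraries.

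Some Aux/IAA genes lie near one another in the genome, which the choice of genes did not use. IAA3 and IAA17 lie 6388 bases apart on chromosome 1, IAA2 and IAA7 lie 12510 bases apart on chromosome 3, and IAA14 and IAA1 lie 10732 bases apart on chromosome 4. Each pair is divergent, with the left gene on the minus strand and the right gene on the plus strand. Of these 6 genes 2 were expressed, IAA7 and IAA17, and neither exceeded 4 FPKM, while none of the 5 most abundant Aux/IAA genes has another of the 46 within 20000 bases.

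The auxin response element, the letters TGTCTC or TGTCGG that ARF proteins are known to bind, was searched on both strands in the 250 bases before each annotated gene start. The motifs share their first 4 letters and cannot match at the same place on a strand. One or both were found before 13 of the 46 genes (28.3%), against 14.6% of 26686 protein-coding genes, and before 7 of the 17 Aux/IAA genes (41.2%). TGTCTC stood before 6 of the 46 (13.0%, against 10.9%) and TGTCGG before 8 (17.4%, against 4.16%). No match was found before TAA1, AFB1, ARF5 or IAA17.

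The windows before IAA8, the most abundant, and IAA19, which had the most matches but was below 1 FPKM, are given with TGTCTC or its reverse complement in capitals (RefSeq, TAIR10.1, strand of the gene, 5′ to 3′).
IAA8, chr2:9636096-9636345, plus strand: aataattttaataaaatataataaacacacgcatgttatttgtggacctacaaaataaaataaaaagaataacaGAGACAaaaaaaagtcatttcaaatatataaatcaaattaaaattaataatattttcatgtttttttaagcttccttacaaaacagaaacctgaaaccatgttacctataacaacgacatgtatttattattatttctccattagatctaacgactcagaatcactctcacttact
IAA19, chr3:5263751-5264000, plus strand: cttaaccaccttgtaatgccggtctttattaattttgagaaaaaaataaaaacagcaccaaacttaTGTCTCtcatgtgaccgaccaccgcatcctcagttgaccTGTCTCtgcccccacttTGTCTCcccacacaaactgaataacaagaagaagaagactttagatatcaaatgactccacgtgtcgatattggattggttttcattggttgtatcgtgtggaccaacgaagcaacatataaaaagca
IAA8 has 1 match, on the reverse strand, and IAA19 has 3, all forward; a match describes the letters and is not a shown binding site.

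Elsewhere in the pathway, 71 further genes in 9 lists were measured, 32 were expressed, and by the same rule 1 was lower and 0 higher in myb98. Over all expressed genes 2.74% were lower and 2.95% higher, so 1 of 32 is near that background and does not set these lists apart. The gene was GH3.5 (AT4G27260), which conjugates auxin to amino acids, at 0.693 FPKM in myb98 and 3.09 FPKM in WT (4.46-fold lower in myb98, log2 ratio -1.27, or -1.17 against genes of like length), or about 68.4 and 352 fragments. DAO1 (AT1G14130), which oxidizes auxin, had 6.47 FPKM in myb98 and 10.6 FPKM in WT (-0.63), and GH3.6 (AT5G54510) had 1.85 FPKM in myb98 and 1.77 FPKM in WT (0.04). Of the 10 genes of auxin inactivation listed, these 3 were expressed, with a median of -0.63.

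Carriers, kinases and the degradation machinery did not pass the rule. PILS6 had 5.82 FPKM in myb98 and 8.12 FPKM in WT (log2 ratio -0.42), and the transporter ABCB1 12.8 FPKM in myb98 and 17.1 FPKM in WT (-0.39). PID, a kinase that directs PIN proteins, had 6.74 FPKM in myb98 and 4.20 FPKM in WT (0.57), and its relative WAG1 2.43 FPKM in myb98 and 1.74 FPKM in WT (0.33). All 3 expressed kinase genes of this list were above 0. Of the ubiquitin ligase that holds the receptors, ASK1 (AT1G75950) had 157 FPKM in myb98 and 79.3 FPKM in WT. Its log2 ratio was 0.98, just short of the rule, or 0.83 against genes of like length. RBX1 had 49.3 FPKM in myb98 and 29.7 FPKM in WT (0.71, or 0.38 against genes of like length).

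In the remaining lists no gene passed the rule either. AFB5 had 16.2 FPKM in myb98 and 17.1 FPKM in WT (-0.07), and AFB4 had 4.71 FPKM in myb98 and 4.77 FPKM in WT (-0.01). Of the ARF genes outside the set, ARF9 had 2.84 FPKM in myb98 and 4.66 FPKM in WT (-0.56), and ARF10 had 7.33 FPKM in myb98 and 5.93 FPKM in WT (0.27). IAA28 had 7.02 FPKM in myb98 and 9.04 FPKM in WT (-0.32), and IAA11 had 2.83 FPKM in myb98 and 2.40 FPKM in WT (0.17). The TOPLESS-type corepressors, which Aux/IAA proteins recruit, were all 5 below 0, with TPR3 at 15.0 FPKM in myb98 and 19.8 FPKM in WT (-0.38) and TPR2 at 19.8 FPKM in myb98 and 25.4 FPKM in WT (-0.35); their transcripts are long, and against genes of like length the median of the 5 was -0.02.

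SAUR genes, small early auxin-induced transcripts, had 79 measured members by annotated name, of which 20 were expressed, 3 were higher and 0 lower in myb98, where 2.95% of all expressed genes were higher and 2.74% lower. AT5G53590 had 8.36 FPKM in myb98 and 1.63 FPKM in WT (5.13-fold higher, log2 ratio 1.83), AT1G56150 had 2.89 FPKM in myb98 and 0.589 FPKM in WT (1.29, with about 23.1 fragments in WT), and AT4G34800 had 19.1 FPKM in myb98 and 7.24 FPKM in WT (1.29). The last was named after its value was seen. The median of the 20 was 0.36, against 0.00 for all expressed genes. The 20 include AT5G01830, named SAUR21, whose transcript of 2865 nt is not small. It was kept because the list follows names. SAUR transcripts are short (median 897.5 nt), and against genes of like length the median was 0.14 and AT5G53590 was the single one past the rule in the higher direction, at 1.60, where 1.68% of all expressed genes with a known length were higher.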

How the data were processed

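RNA of mature ovules was measured in 2 samples, 1 per genotype. The authors deposited FPKM in a table with 1 column per library; its header names only the libraries, and the unit was read from the values. TopHat2 2.0.14, Cuffdiff 2.2.1 and TAIR10 are named in the submitters' processing notes. No source used here states annotation version, strandedness or scaling between libraries. Of 35548 identifiers 33557 had values, and 32802 of these matched TAIR10.1, which gave names, longest transcript lengths, coordinates and sequence. Depth was estimated from low nonzero values of single-transcript genes of 1500 nt or longer, each multiplied by transcript length in kilobases. Within a preset range of these products, the median of the densest window was taken as 1 fragment. It was 0.0239 FPKM times kilobases in myb98 and 0.0207 in WT. The preset range bounded the estimate in advance, and all fragment numbers given here depend on it. Log2 ratios used a pseudocount of 1 FPKM and were tested on simulated data. Every one of the 47 genes was to be given (1 is not reported here and is in no count, sum or share of the auxin genes), and the 2 largest ratios of each further list. Genes, lists and rules were chosen with earlier results of these data known. Transcripts were aligned with blastn 2.17.0. Alternatives were other pseudocounts, filters, centring, transcript length and a 4-fold rule.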

Additional observations from a re-analysis of the deposited data

How the results depend on the processing

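No paired analysis was possible because each genotype has 1 library, and for the same reason no library could be left out. The count of auxin genes lower in myb98 was 0 under all 7 alternatives, and the count higher was 0 under 6 of them and 1 (IAA17) at a pseudocount of 0.1. A pseudocount of 5, a minimum of 5 FPKM, no filter and the 4-fold rule could not add a gene to a count of 0. These counts could change only at a pseudocount of 0.1, with centring or against genes of like length. Among the other pathway genes 1 was lower (GH3.5) in the values reported, and 0 at a pseudocount of 5, at a minimum of 5 FPKM and under the 4-fold rule. The count of higher SAUR genes, 3 as reported, was 5 at a pseudocount of 0.1, 1 at a pseudocount of 5, 1 against genes of like transcript length and 0 under the 4-fold rule. Over all expressed genes the share past the rule in either direction was 5.69%, 9.44% at a pseudocount of 0.1, 2.29% at 5, 4.53% against genes of like length and 0.994% under the 4-fold rule. Of the group medians, that of the PIN genes, which rests on PIN3, was 0.35 as reported, 0.55 at a pseudocount of 0.1, 0.13 at 5, 0.02 over all 6 with no filter on low values and 0.50 against genes of like length. With no filter the synthesis median was -0.01 and that of the influx carriers 0.09, also 0.09 at a minimum of 5 FPKM. Against genes of like length the receptor median was 0.28 and the ARF median 0.16. Of 164 values of single expressed auxin genes under the alternatives, 132 stayed within 0.1 of the reported log2 ratio and 32 moved further. Values with no filter or a minimum of 5 FPKM could not move, since these settings change only which genes are kept. The 32 were 7 of 29 at a pseudocount of 0.1, 13 of 29 at 5 and 12 of 29 against genes of like length. Of the 164, 2 changed sign, LAX1 and IAA4, both against genes of like length. Centring on the median of all expressed genes shifted the ratios by 0.01. Levels below 1 FPKM rest on few fragments, and no ratio was read for auxin genes below 1 FPKM in both libraries; GH3.5, ARF19 and AT1G56150 were below 1 FPKM in one library, and their ratios are less precise.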
